A study of Mus musculus with 9 samples.

Results

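The genes described here encode the matrix metalloproteinases (Mmp), the ADAM and ADAMTS metalloproteinases and their tissue inhibitors (Timp). They were taken as all protein-coding mouse genes whose symbol is Mmp, Adam or Adamts followed by a number (with a letter allowed after Mmp and Adam numbers), and Timp1 to Timp4. This rule gave 78 of the 46517 genes in the tables: 22 Mmp, 33 Adam, 19 Adamts and 4 Timp genes. Their RNA was measured by bulk sequencing of primary glioblastoma tissue from 3 mouse models, Synapsin-cre, Nestin-creERT2 and NG2-creERTM, with 3 libraries of each. All of the mice had a mixed strain background, and the question the series asks is how tumours standing for different cells of origin compare. Each model carries the name of the promoter that drives its Cre recombinase. Synapsin marks neurons, Nestin marks neural stem and progenitor cells, and NG2 marks pericytes and the precursors of oligodendrocytes. Tamoxifen switches on the 2 forms of Cre whose names end in ERT2 or ERTM. The tumour-driving alleles, the age and sex of the mice, and whether each library came from a separate animal are not given in the sources used here. P-values therefore measure the spread between these libraries, which may be partly technical.

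Matrix metalloproteinases and most ADAM and ADAMTS proteins are zinc-dependent enzymes made as inactive precursors. Matrix metalloproteinases cut collagens, laminins and other proteins of the extracellular matrix, ADAM proteins release growth factors, cytokines and receptors from the cell surface, and ADAMTS proteins cut the chondroitin sulphate proteoglycans that fill the space between brain cells, or trim procollagens. The Timp proteins bind the active site of these enzymes and block it, so protein activity depends on much besides the RNA levels given here. In glioma these families are known for their part in invasion along vessels and white matter, in the remodelling of the proteoglycan matrix and in the shedding of growth factors.

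Total counts in genes ran from 23557398 to 41099967 per library. Markers of oligodendrocyte precursors, a usual signature of glioma cells, were found in every library. Their summed level was lowest in Synapsin-cre replicate 1, at 476 CPM (counts scaled to a library total of 1000000 with TMM size factors), and 1492 to 7321 CPM in the other 8. Synapsin-cre replicate 1 stood apart from the rest. Its Spearman correlation with the other 8 libraries was 0.778 to 0.884, against 0.891 to 0.957 among the 28 pairs of the others, its summed neuron markers came to 4972 CPM against 36.9 to 788 elsewhere, and its summed proliferation markers to 66.7 CPM against 864 to 1853. Results are therefore given with and without that library. Xist, the X-inactivation RNA of female cells, was at most 1.28 CPM in the 3 Synapsin-cre libraries and at least 778 in the 3 Nestin-creERT2 libraries, so that sex-linked expression and model cannot be told apart between these models. NG2-creERTM was split, with 0.989, 1320 and 1.27 CPM of Xist in replicates 1, 2 and 3.

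Of the 78 genes, 57 had enough counts to be tested: 17 Mmp, 18 Adam, 18 Adamts and all 4 Timp genes. The filter can be passed through 1 model alone, so the tested genes include some whose RNA was counted mainly in one model. The 21 others comprised 7 with no count in any library (Adam20, Adam24, Adam29, Adam39, Adam6a, Mmp7 and Mmp20) and 14 that reached at most 0.524 CPM. A count of 0 allows up to 3 counts, or 0.0715 to 0.133 CPM depending on the library, and covers counting error only. In contrast, 20 genes had at least 10 CPM in all 9 libraries, and 37 at least 1 CPM. In bulk tissue, fewer cells of a type and less RNA per cell cannot be told apart.

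To compare genes with each other, levels were divided by exon length and are given as CPM per kilobase. On this scale the most abundant of the 78 was the inhibitor Timp2, at 68.6 ± 16.7 (SD, n = 9). Timp1 followed at 56.4 ± 61.4, the membrane-type metalloproteinase gene Mmp15 at 54.4 ± 33.5 and the sheddase gene Adam9 at 53.6 ± 20.9. The proteoglycan-cutting Adamts1 reached 40.2 ± 34.5, Timp3 35.3 ± 15.6 and Adam10, the sheddase of Notch receptors and N-cadherin, 26.2 ± 5.68 (SD, n = 9 each). Adam15, Mmp14, Mmp17, Timp4 and Adam19 completed the first 12, between 20.6 and 13.5 CPM per kilobase. The SDs of the first 5 overlap widely, so their order is not resolved. Mmp2 came 15th at 12 ± 16.9 and Mmp9 32nd at 1.82 ± 2.40 CPM per kilobase.

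**Figure D1:**
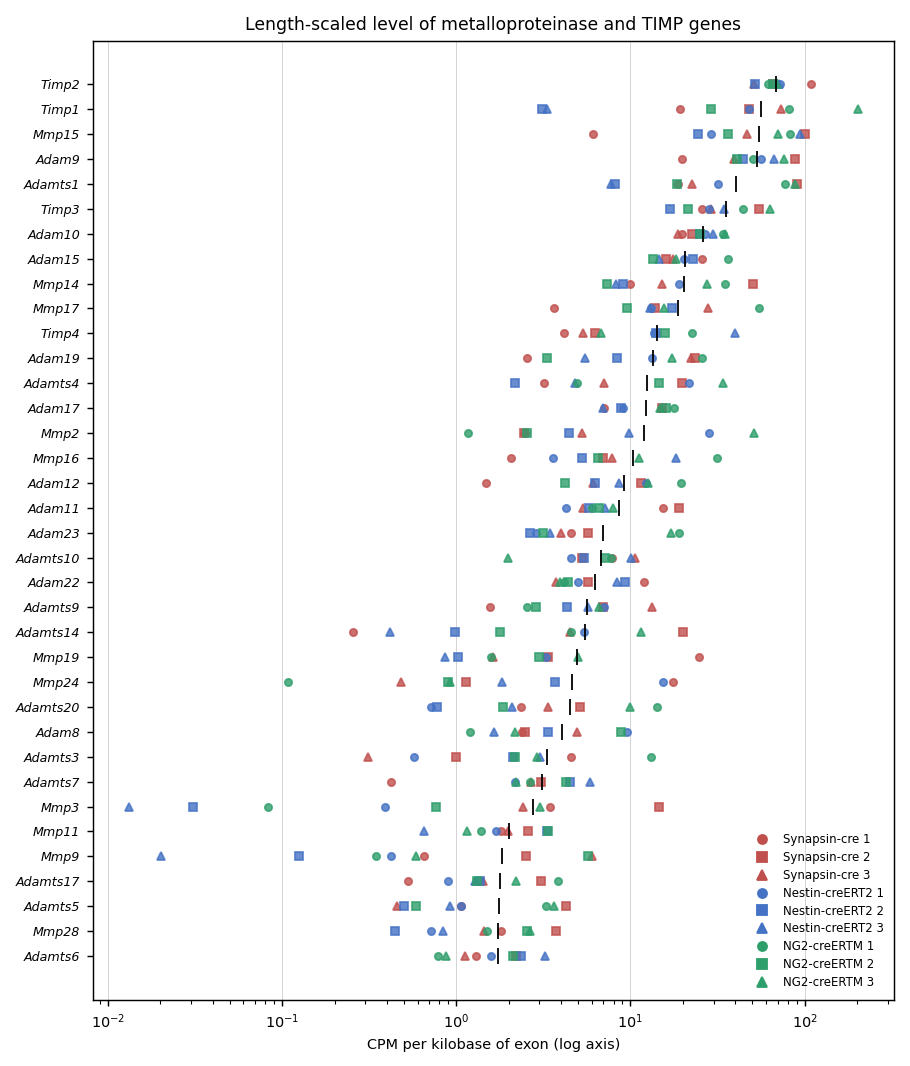
Level of the 36 protease and inhibitor genes with a mean of at least 1 CPM per kilobase, in CPM per kilobase of exon (log axis), with 1 point per library coloured by model and a line at the mean. Timp2 and Adam10 span narrow ranges, 51.1 to 108 and 18.8 to 34.9, while Timp1 spans 3.09 to 202.

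The families split into steady and variable genes. Adam10 differed by 1.86-fold between its highest and lowest library and Timp2 by 2.12-fold, the narrowest ranges among the levels named above, with Adam15 at 2.69-fold. Timp1 differed by 65.5-fold, Mmp2 by 43.8-fold and Mmp9 by 297-fold. The lowest Mmp9 library, Nestin-creERT2 replicate 3, had 3 counts, so the size of that last ratio is uncertain. The 4 Timp genes made up 23.1 to 39.4% of the summed CPM per kilobase of the 78 genes, the sheddase and other somatic ADAM genes 19.4 to 35.9%, and the membrane-type Mmp genes 9.87 to 27.1%. The proteoglycan-cutting ADAMTS genes contributed 4.44 to 16.7% and the neural ADAM genes 2.33 to 7.97%. The secreted gelatinases, collagenases and stromelysins, which dominate textbook accounts of matrix turnover, contributed little RNA: at most 5.68%, 0.584% and 2.10%, respectively, in any library.

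No gene of the 4 families passed the test for a difference between models. In edgeR's quasi-likelihood test on all 9 libraries, adjusted by Benjamini-Hochberg over 17947 genes at a threshold of 0.05, 0 of 57 passed in each of the 3 pairwise comparisons and in the test for any difference among the models, where 0.0% of all genes passed. Unadjusted p-values were below 0.05 for 10 genes higher and 2 lower in NG2-creERTM than in Nestin-creERT2 (5.53% and 5.73% of all genes), for 9 higher and 3 lower in Synapsin-cre than in Nestin-creERT2 (6.74% and 4.05%), and for 5 higher and 5 lower in Synapsin-cre than in NG2-creERTM (8.81% and 4.0%). For any difference among the models, 12 of 57 had an unadjusted p below 0.05, against 13.1% of all genes. limma voom also passed 0 of 57 in every test, with 10, 8, 8 and 12 unadjusted p-values below 0.05 in the same order, against 11.1%, 10.4%, 8.95% and 11.2% of all genes. DESeq2, in contrast, passed 5, 5, 1 and 5 of 57, against 3.46%, 2.82%, 2.44% and 4.84% of all genes. The genes it passed were Adam23, Adamts12, Adamts20, Mmp25 and Mmp28 (NG2-creERTM against Nestin-creERT2), Adamts19, Mmp3, Mmp9, Mmp28 and Timp4 (Synapsin-cre against Nestin-creERT2), Adamts12 (Synapsin-cre against NG2-creERTM), and Adam23, Adamts12, Adamts20, Mmp3 and Mmp28 (any difference). With Synapsin-cre replicate 1 left out, edgeR passed 0 of 58 in each pairwise comparison, where 0.671%, 1.48% and 0.00541% of all genes passed, and 1 of 58, Adamts16, for any difference (1.87% of all genes). At an unadjusted p below 0.05 it then had 12 genes higher and 4 lower in NG2-creERTM than in Nestin-creERT2 (8.11% and 10.7% of all genes), 10 and 7 in Synapsin-cre against Nestin-creERT2 (9.33% and 12.2%), 3 and 4 in Synapsin-cre against NG2-creERTM (5.3% and 6.72%), and 18 for any difference (22.3%). Fits of only the 2 models compared passed none of the family genes, where 1.39%, 0.0291% and 0.0% of all genes passed.

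Most log2 fold changes of the 57 genes were positive in both comparisons with Nestin-creERT2, which share the Nestin-creERT2 libraries. The median was 0.59 for NG2-creERTM against Nestin-creERT2, with 40 of 57 positive, beside 0.02 and 50.9% positive over all genes tested. It was 0.51 for Synapsin-cre against Nestin-creERT2, with 41 of 57 positive, beside 0.13 and 57.8% over all genes. Between Synapsin-cre and NG2-creERTM it was -0.19, with 27 of 57 positive, beside 0.08 and 54.6%. Nestin-creERT2 replicates 1, 2 and 3 held the lowest value of the 9 libraries for 5, 8 and 9 of the 57 genes. Over all genes, 7.78%, 9.94% and 6.95% had their lowest value there. These libraries held the highest value for 2, 1 and 3 of the 57 genes, where 6.88%, 9.67% and 6.25% of all genes had theirs.

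**Figure D2:**
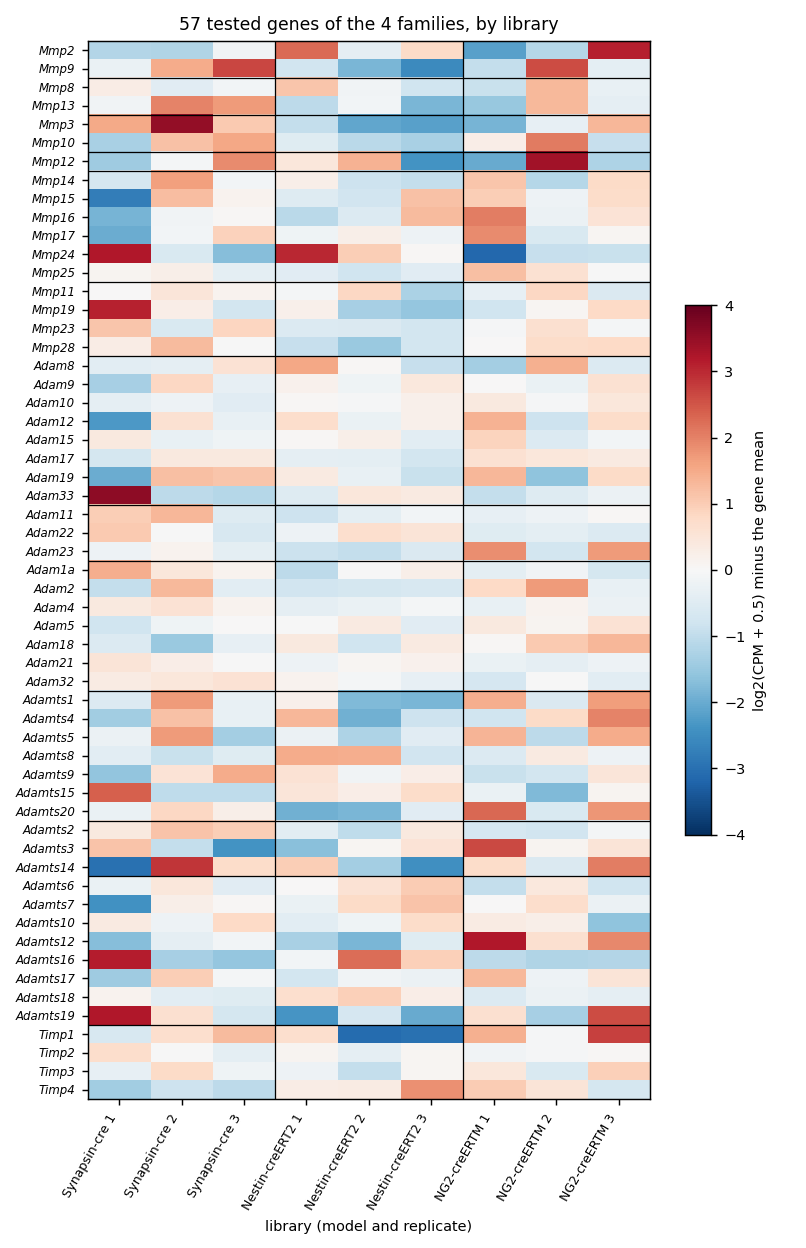
Difference of each tested gene's log2(CPM + 0.5) from its own mean over the 9 libraries, with genes grouped by role and libraries grouped by model. The Nestin-creERT2 columns are low for Mmp28 and Mmp25, and Synapsin-cre replicate 1 is high for Mmp24, Adam33 and Adamts16 and low for Adamts14.

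Libraries of the compared models did not overlap for 6 genes higher and 5 lower in NG2-creERTM than in Nestin-creERT2 (11.0% and 14.2% of all genes), for 9 higher and 3 lower in Synapsin-cre than in Nestin-creERT2 (8.46% and 6.26%), and for 4 higher and 5 lower in Synapsin-cre than in NG2-creERTM (8.04% and 5.76%). With Synapsin-cre replicate 1 left out, which leaves 2 Synapsin-cre libraries, these counts were 6 and 5 (11.0% and 14.0% of all genes), 17 and 7 (19.4% and 20.9%), and 6 and 8 (13.5% and 12.9%). For 8 of the 57 genes, all 3 libraries of 1 model lay outside the range of the other 6. Synapsin-cre lay lowest for Adam10 and Timp4 (2 genes; 1.62% of all genes) and highest for Adam32 and Adamts2 (2 genes; 3.08%). Nestin-creERT2 lay lowest for Mmp25 and Mmp28 (2 genes; 2.5%) and highest for Adamts18 (1 gene; 2.41%). NG2-creERTM lay highest for Adamts12 (1 gene; 2.23%) and lowest for none (2.82%).

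Among the secreted metalloproteinases, the gelatinase genes were uneven within every model. Mmp2, whose product cuts denatured and basement membrane collagen, stood at 8.37, 8.22 and 17.7 CPM in Synapsin-cre replicates 1 to 3, at 95.8, 15 and 33.0 in Nestin-creERT2 and at 3.93, 8.61 and 172 in NG2-creERTM. NG2-creERTM thus holds both the lowest and the highest library, and without its replicate 3 the log2 fold change of Synapsin-cre over NG2-creERTM turned from -2.43 ± 1.27 (SE) to 0.86. The library with the next highest Mmp2, Nestin-creERT2 replicate 1, had 6021 CPM of summed choroid plexus markers, against at most 411 elsewhere, and the part of these cells in its Mmp2 level was not tested.

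Mmp9, the other gelatinase gene, stood at 2.30, 8.88 and 21.2 CPM in Synapsin-cre, at 1.5, 0.443 and 0.0715 in Nestin-creERT2 and at 1.23, 20.2 and 2.08 in NG2-creERTM. All Synapsin-cre libraries were above all Nestin-creERT2 libraries, with a log2 fold change of 4.01 ± 1.44 (SE, edgeR adjusted p = 0.394). NG2-creERTM overlapped both. The 8 markers of neutrophils, a known source of Mmp9 and Mmp8, summed to 3.14, 0.635 and 10.1 CPM in Synapsin-cre, 4.38, 1.5 and 0.262 in Nestin-creERT2 and 1.83, 4.16 and 2.18 in NG2-creERTM, and Ly6g, Elane, Mpo, Camp and Ngp were each at 0 in at least 1 library. The highest and the lowest of these sums fell in the libraries with the highest and the lowest Mmp9, Synapsin-cre replicate 3 and Nestin-creERT2 replicate 3. The summed osteoclast markers were highest in NG2-creERTM replicate 2, at 43.9 CPM, with 33.0 in NG2-creERTM replicate 3, 27.8 in Synapsin-cre replicate 3 and 3.81 to 19.4 in the other 6, and the part of either marker list in the Mmp9 levels was not tested.

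Stromelysins, collagenases and the macrophage elastase Mmp12 are encoded side by side on chromosome 9, where 9 of the 78 genes lie within chr9:7272514-7699585 (GRCm38). Several of these genes are known targets of the AP-1 transcription factors, which bind TGAGTCA. The 250 bases before each RefSeq gene start (GRCm38.p6) were searched for TGAGTCA and for its reverse complement TGACTCA, which covers both strands. A match was present in 6 of the 9 cluster genes and in 8 of the 48 family genes that have a RefSeq window. Counted by window, a match was present in 8 of the 53 family windows (15.1%) and in 4.46% of all 32851 windows. The other family genes with a match were Adam19 and Adam29. The 100 bases before the start of those 6 cluster genes are shown because they are neighbours with different RNA levels that share the motif (in capitals, 5′ to 3′ along each gene's own strand). They cover chr9:7272414-7272513 for Mmp13, chr9:7347274-7347373 for Mmp12, chr9:7388027-7388126 (minus strand) for Mmp1b, chr9:7445722-7445821 for Mmp3, chr9:7502242-7502341 for Mmp10 and chr9:7691990-7692089 for Mmp7, on the plus strand except for Mmp1b.
Mmp13: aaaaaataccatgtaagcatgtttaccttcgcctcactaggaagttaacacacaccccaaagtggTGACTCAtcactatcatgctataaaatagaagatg
Mmp12: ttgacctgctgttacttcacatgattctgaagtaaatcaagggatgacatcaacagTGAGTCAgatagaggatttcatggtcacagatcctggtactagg
Mmp1b: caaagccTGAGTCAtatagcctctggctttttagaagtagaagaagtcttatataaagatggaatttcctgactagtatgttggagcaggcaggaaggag
Mmp3: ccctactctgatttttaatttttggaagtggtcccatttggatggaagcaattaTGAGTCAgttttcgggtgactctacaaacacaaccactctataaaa
Mmp10: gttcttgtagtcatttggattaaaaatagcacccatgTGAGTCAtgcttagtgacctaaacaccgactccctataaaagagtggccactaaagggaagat
Mmp7: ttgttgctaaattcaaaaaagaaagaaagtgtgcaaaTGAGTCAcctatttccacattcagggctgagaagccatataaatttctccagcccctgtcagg

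The motif began 35 bases before the start of Mmp13, 44 before Mmp12, 93 before Mmp1b, 46 before Mmp3 and 63 before both Mmp10 and Mmp7. A match of these letters is a description of the sequence and does not show that a factor was bound. RNA from the 6 genes differed: Mmp7 had no count in any library, Mmp1b was too low to be tested, and the other 4 were tested.

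Stromelysin 1, encoded by Mmp3, cuts proteoglycans and fibronectin and activates other metalloproteinases. Mmp3 stood at 6.24, 26.2 and 4.36 CPM in Synapsin-cre, at 0.705, 0.0554 and 0.0238 in Nestin-creERT2 and at 0.150, 1.39 and 5.43 in NG2-creERTM. All Synapsin-cre libraries were above all Nestin-creERT2 libraries, with NG2-creERTM reaching from the Nestin-creERT2 range into that of Synapsin-cre. The log2 fold change of Synapsin-cre over Nestin-creERT2 was 5.55 ± 1.64 (SE, edgeR adjusted p = 0.329), and 5.87 ± 1.66 without Synapsin-cre replicate 1 (adjusted p = 0.0969). Mmp10, encoding stromelysin 2, stood at 0, 2.26 and 3.04 CPM in Synapsin-cre, at 0.382, 0.0831 and 0 in Nestin-creERT2 and at 0.959, 4.63 and 0.149 in NG2-creERTM. Its models overlap with all 9 libraries. In Synapsin-cre replicate 1 it had no count, and without that library the Synapsin-cre libraries lay above those of Nestin-creERT2, with a log2 fold change of 4.08 ± 1.48 (SE, edgeR adjusted p = 0.162).

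Collagenase 3, the product of Mmp13, cuts fibrillar collagen. Mmp13 stood at 1.24, 7.12 and 5.74 CPM in Synapsin-cre, at 0.441, 1.27 and 0.0476 in Nestin-creERT2 and at 0.180, 4.29 and 1.02 in NG2-creERTM. Nestin-creERT2 replicate 2 lay just above Synapsin-cre replicate 1, which is the whole overlap between these models (log2 fold change 3.0 ± 1.33, SE, edgeR adjusted p = 0.463). Mmp12, known from macrophages, was uneven in every model, at 0.575, 2.21 and 10.2 CPM in Synapsin-cre, 3.41, 6.98 and 0.0476 in Nestin-creERT2 and 0.210, 29.0 and 0.720 in NG2-creERTM. Summed macrophage markers came to 242, 408 and 335 CPM in Synapsin-cre, 1523, 639 and 129 in Nestin-creERT2 and 792, 823 and 911 in NG2-creERTM, with their lowest value in the library with the lowest Mmp12 and their highest in one with 3.41 CPM of Mmp12. Their part in the Mmp12 levels was not tested. Mmp8, encoding the neutrophil collagenase, stayed at or below 1.91 CPM in all libraries.

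Nestin-creERT2 replicate 3 had the lowest Mmp3, Mmp9, Mmp12 and Mmp13 of the 9 libraries. It also had the lowest summed neutrophil, macrophage, osteoclast, fibroblast and endothelial markers, and the highest summed markers of oligodendrocyte precursors. The part of any of these cells in the low Mmp values was not tested. The 4 lowest Mmp values rest on 1, 3, 2 and 2 counts, respectively, and Nestin-creERT2 replicate 2 had 2 counts of Mmp3. NG2-creERTM replicate 2 had the highest Mmp8, Mmp10 and Mmp12. Genes beside the cluster were expressed at a more even level: Yap1 ran from 35.2 to 79.4 CPM, Birc2 from 25.0 to 56.0 and Tmem123 from 18.2 to 79.6.

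**Figure D3:**
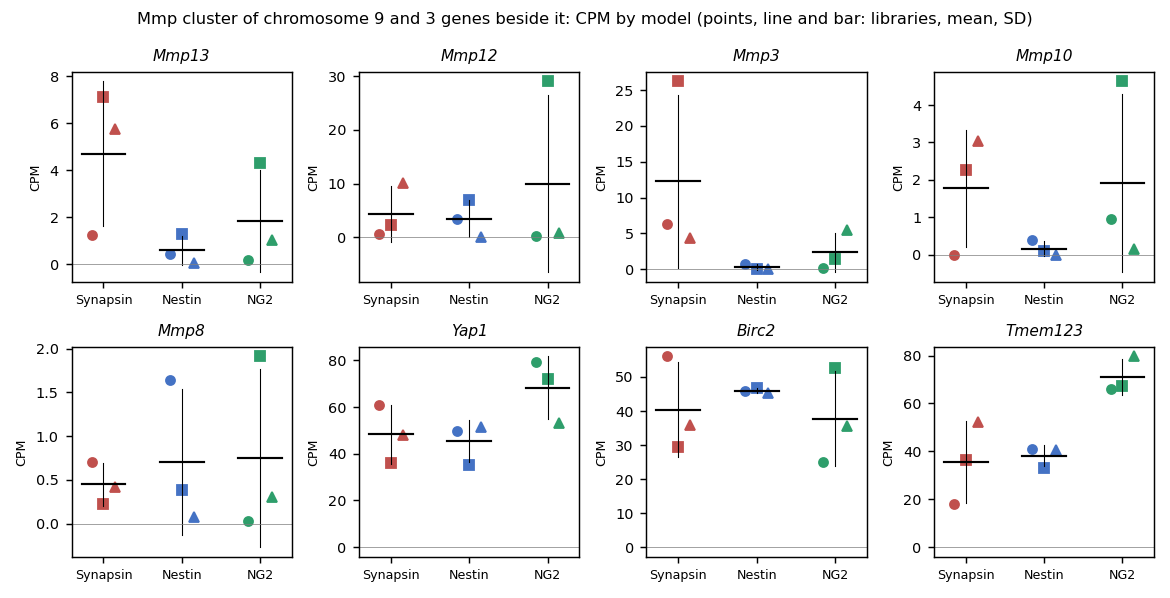
CPM in each library (points), mean (horizontal line) and SD (vertical bar) by model for 5 metalloproteinase genes of the chromosome 9 cluster and 3 genes beside it, Yap1, Birc2 and Tmem123. Mmp3 is above 4 CPM in all 3 Synapsin-cre libraries and below 1 in all 3 Nestin-creERT2 libraries, while the 3 genes beside the cluster stay between 18.2 and 79.6 CPM everywhere.

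Among the membrane-anchored metalloproteinases, Mmp14 (MT1-MMP, the main activator of pro-Mmp2 at the cell surface) stood at 59.0, 301 and 90.0 CPM in Synapsin-cre, at 113, 53.8 and 49.1 in Nestin-creERT2 and at 209, 43.7 and 163 in NG2-creERTM. Each model has 1 library or more on either side of 100 CPM, and the models overlap. Mmp15 ranged from 33.1 CPM in Synapsin-cre replicate 1 to 539 in Synapsin-cre replicate 2, so the 2 extremes fall within 1 model. Mmp16 and Mmp17 were both highest in NG2-creERTM replicate 1, at 273 and 363 CPM, and both lowest in Synapsin-cre replicate 1, at 17.9 and 24.2 CPM.

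Mmp24 (MT5-MMP), best known from neurons, stood at 81.7, 5.30 and 2.26 CPM in Synapsin-cre, at 71.6, 17.2 and 8.60 in Nestin-creERT2 and at 0.509, 4.21 and 4.29 in NG2-creERTM. All NG2-creERTM libraries were below all Nestin-creERT2 libraries (log2 fold change -3.43 ± 1.44, SE, edgeR adjusted p = 0.426). The summed neuron markers had much the same high and low libraries, at 4972, 167 and 68.8 CPM in Synapsin-cre, 788, 570 and 670 in Nestin-creERT2 and 47.1, 36.9 and 154 in NG2-creERTM, and their part in the Mmp24 levels was not tested. Mmp25 (MT6-MMP) was low throughout, at 0.499 to 0.764 CPM in Nestin-creERT2, 0.812 to 1.52 in Synapsin-cre and 1.22 to 3.48 in NG2-creERTM. Its log2 fold change of NG2-creERTM over Nestin-creERT2 was 1.74 ± 0.59 (SE, edgeR adjusted p = 0.359).

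Mmp28, encoding epilysin, a secreted enzyme of skin and of myelinating nerve, stood at 7.04, 14.4 and 5.56 CPM in Synapsin-cre, at 2.76, 1.72 and 3.24 in Nestin-creERT2 and at 5.78, 9.86 and 10.2 in NG2-creERTM. All 3 Nestin-creERT2 libraries were below the other 6. The log2 fold changes over Nestin-creERT2 were 1.74 ± 0.54 in NG2-creERTM (SE, edgeR adjusted p = 0.324) and 1.81 ± 0.54 in Synapsin-cre (adjusted p = 0.332), and without Synapsin-cre replicate 1 they were 1.74 ± 0.51 (adjusted p = 0.111) and 1.95 ± 0.55 (adjusted p = 0.0954). Markers of Schwann and neural crest cells were also lower in Nestin-creERT2, summing to 158 to 696 CPM against 970 to 2774 in Synapsin-cre and 1530 to 4818 in NG2-creERTM. Their part in the Mmp28 levels was not tested. Mmp19 was high in 1 library: Synapsin-cre replicate 1 had 87.3 CPM and the other 8 had 3.05 to 17.6.

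**Figure D4:**
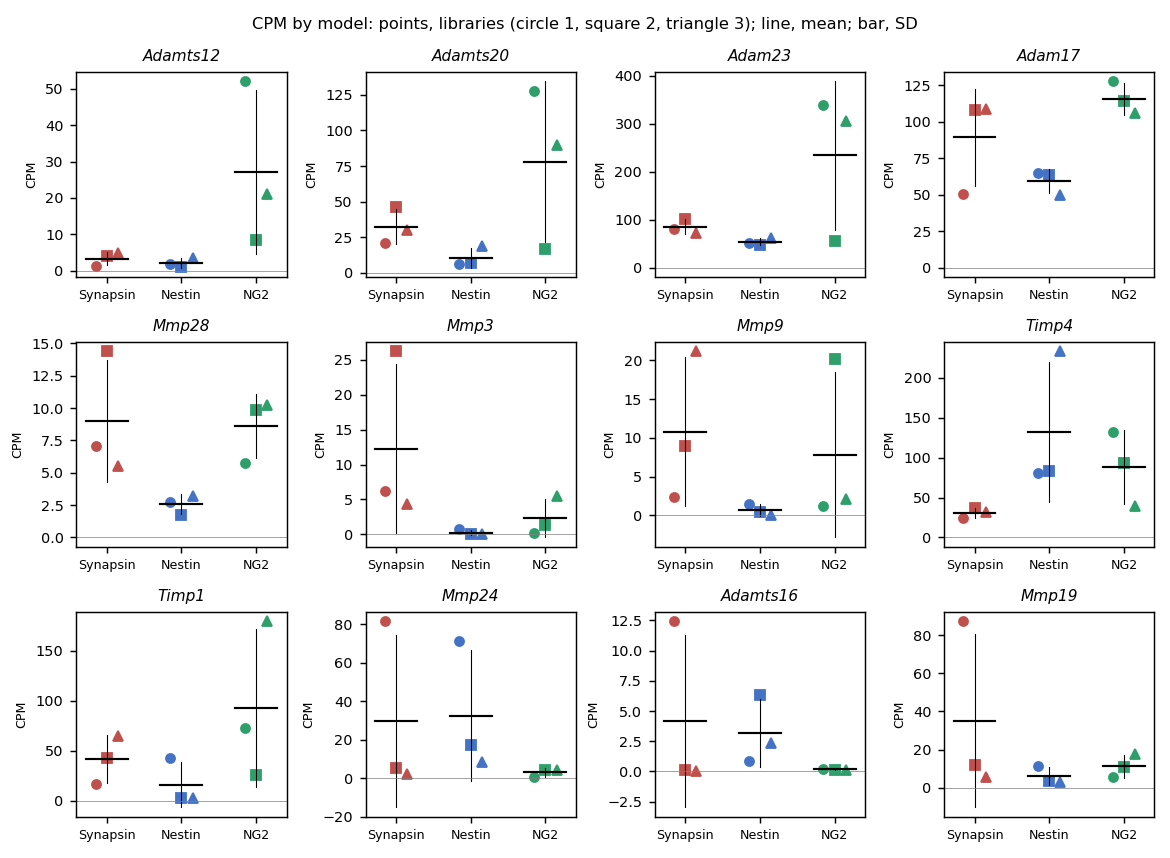
CPM in each library (points), mean (horizontal line) and SD (vertical bar) by model for 12 genes of the 4 families. The Nestin-creERT2 libraries are the 3 lowest for Mmp28, the Synapsin-cre libraries the 3 lowest for Timp4, and the NG2-creERTM libraries the 3 highest for Adamts12.

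Turning to the sheddases, Adam10 stood at 97.4, 110.5 and 92.3 CPM in Synapsin-cre, at 131, 122 and 146 in Nestin-creERT2 and at 166, 123 and 171 in NG2-creERTM. The 3 Synapsin-cre libraries were the 3 lowest. The differences were small: the log2 fold change of Synapsin-cre was -0.62 ± 0.25 against NG2-creERTM (SE, edgeR adjusted p = 0.371) and -0.41 ± 0.25 against Nestin-creERT2 (adjusted p = 0.585).

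Adam17 encodes the sheddase of TNF and of several EGF receptor ligands. Its levels were 50.5, 108 and 109 CPM in Synapsin-cre, 65.0, 63.2 and 49.7 in Nestin-creERT2 and 128, 114 and 106 in NG2-creERTM. All NG2-creERTM libraries were above all Nestin-creERT2 libraries, and of the Synapsin-cre libraries replicate 1 alone lay in the Nestin-creERT2 range. The log2 fold change of NG2-creERTM over Nestin-creERT2 was 0.96 ± 0.33 (SE, edgeR adjusted p = 0.359), and 0.96 ± 0.23 without Synapsin-cre replicate 1 (adjusted p = 0.0767). That of Synapsin-cre over Nestin-creERT2 without this library was 0.86 ± 0.25 (adjusted p = 0.106).

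Among the partners of these sheddases, Rhbdf2 encodes iRhom2, which carries Adam17 to the cell surface. It was picked because its p was among the 3 smallest of the related genes higher in NG2-creERTM than in Nestin-creERT2. Rhbdf2 stood at 11.4, 7.78 and 10.8 CPM in Synapsin-cre, at 5.02, 3.13 and 4.31 in Nestin-creERT2 and at 9.92, 11.6 and 14.8 in NG2-creERTM, with all Nestin-creERT2 libraries lowest (log2 fold change of NG2-creERTM over Nestin-creERT2 1.54 ± 0.41, SE, edgeR adjusted p = 0.304). Other partners differed from it: for the same comparison the log2 fold change was 0.99 ± 0.38 for Tspan14, 0.05 for Tspan5 and -1.08 for Tspan33, which encode tetraspanins that bind Adam10. Of the EGF receptor ligands that these sheddases release, Areg and Btc were picked in the same way. Their p-values were among the 3 smallest of the related genes lower in Synapsin-cre than in NG2-creERTM. Areg reached 56.0 and 12.7 CPM in NG2-creERTM replicates 1 and 3 but 0.157 in replicate 2, and at most 3.61 elsewhere. Btc was at 4.11, 1.62 and 24.5 CPM in NG2-creERTM and at most 1.56 in the other 6 libraries.

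With all 9 libraries, the other somatic ADAM genes overlapped between all 3 models. Without Synapsin-cre replicate 1, Synapsin-cre lay above Nestin-creERT2 for Adam19 and below both other models for Adam33. The Adam33 values of Synapsin-cre replicates 2 and 3 rest on 7 and 5 counts. Adam9 was lowest in Synapsin-cre replicate 1, at 81.3 CPM, and highest in Synapsin-cre replicate 2, at 362. Adam12 and Adam19, which encode meltrins, were likewise lowest in Synapsin-cre replicate 1: Adam12 ran from 15.6 CPM there to 207 in NG2-creERTM replicate 1, and Adam19 from 18.0 CPM there, with 23.7 in NG2-creERTM replicate 2, to 183 in NG2-creERTM replicate 1. Adam8 and Adam15 ran from 5.57 to 44.5 and from 82.8 to 222 CPM. Adam33 was high in 1 library, Synapsin-cre replicate 1 with 16.4 CPM, and stood at 0.150 to 1.44 in the other 8.

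Adam11, Adam22 and Adam23 encode ADAM proteins of the nervous system that lack a working catalytic site and act as receptors, Adam22 and Adam23 for the secreted protein Lgi1 at synapses. Adam23 stood at 81.2, 102 and 71.3 CPM in Synapsin-cre, at 51.1, 47.6 and 61.8 in Nestin-creERT2 and at 339.9, 56.2 and 306 in NG2-creERTM. NG2-creERTM replicates 1 and 3 were far above the other 7 libraries, while replicate 2 fell within the Nestin-creERT2 range. The log2 fold change of NG2-creERTM over Nestin-creERT2 was 2.13 ± 0.57 (SE, edgeR adjusted p = 0.304).

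Adam22 went another way, at 172, 81.7 and 53.4 CPM in Synapsin-cre, 72.2, 133 and 119.8 in Nestin-creERT2 and 59.4, 62.8 and 56.7 in NG2-creERTM. The 3 NG2-creERTM libraries were lower than each of the Nestin-creERT2 libraries (log2 fold change -0.86 ± 0.43, SE, edgeR adjusted p = 0.491). Lgi1 itself had 35.5, 0.414 and 0.180 CPM in Synapsin-cre, 26.3, 22.1 and 15.7 in Nestin-creERT2 and 0.869, 1.99 and 1.79 in NG2-creERTM, so the 4 libraries with at least 15.7 CPM are the 4 with the highest summed neuron markers. All NG2-creERTM libraries were below all Nestin-creERT2 libraries. In the fit without Synapsin-cre replicate 1, Lgi1 passed the threshold as lower than in Nestin-creERT2 in both other models. The log2 fold change was -3.79 ± 0.52 in NG2-creERTM (SE, edgeR adjusted p = 0.0391) and -6.15 ± 0.71 in Synapsin-cre (adjusted p = 0.0205). Adam11 was highest in Synapsin-cre replicates 1 and 2, at 86.7 and 108 CPM, and at 24.2 to 44.8 in the other 7.

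The 21 ADAM genes best known from sperm and the reproductive tract, or of unknown role, were close to silent. Of these, 7 were tested, Adam1a reached 9.91 CPM in Synapsin-cre replicate 1, and no other exceeded 5.36 CPM. Adam18 stood at 0.331 to 1.35 CPM in Synapsin-cre, 0.831 to 2.59 in Nestin-creERT2 and 1.92 to 5.36 in NG2-creERTM, all NG2-creERTM libraries being above all of Synapsin-cre (log2 fold change of Synapsin-cre over NG2-creERTM -2.05 ± 0.75, SE, edgeR adjusted p = 0.357). Adam2 reached 1.88 CPM in Synapsin-cre replicate 2, and 1.17 and 2.64 in NG2-creERTM replicates 1 and 2, and was at most 0.273 elsewhere. Sperm markers (Prm1, Prm2, Tnp1, Acrv1 and Ldhc) summed to at most 0.0601 CPM in every library.

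Among the proteoglycan-cutting ADAMTS genes, Adamts1 and Adamts5 are neighbours, at chr16:85793827-85803113 and chr16:85856173-85901828 (GRCm38, both on the minus strand). Their proteins cut versican, brevican and aggrecan. Adamts1 stood at 99.9, 478 and 119 CPM in Synapsin-cre, at 169, 43.1 and 41.0 in Nestin-creERT2 and at 407, 98.0 and 465 in NG2-creERTM. Adamts5 stood at 11.5, 45.8 and 4.93 CPM in Synapsin-cre, at 11.5, 5.43 and 9.89 in Nestin-creERT2 and at 35.5, 6.30 and 39.1 in NG2-creERTM. The 3 highest libraries were the same for both genes and in the same order, Synapsin-cre replicate 2, NG2-creERTM replicate 3 and NG2-creERTM replicate 1. Both genes overlap between all models.

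Adamts20, which acts on versican in skin pigmentation and palate development, stood at 21.2, 46.0 and 30.2 CPM in Synapsin-cre, at 6.41, 6.98 and 18.7 in Nestin-creERT2 and at 128, 16.7 and 89.6 in NG2-creERTM. Synapsin-cre lay above Nestin-creERT2 without overlap, and NG2-creERTM replicate 2 fell below Nestin-creERT2 replicate 3. Its log2 fold change of NG2-creERTM over Nestin-creERT2 was 2.87 ± 0.75 (SE, edgeR adjusted p = 0.297). Adamts4 ranged from 10.4 to 164 CPM and Adamts9 from 23.6 to 201 CPM, both extremes of Adamts9 being Synapsin-cre libraries. Of their substrates, Acan, encoding aggrecan, is given because of its small p for NG2-creERTM against Nestin-creERT2. That p was among the 3 smallest of the related genes higher in NG2-creERTM. The versican and brevican genes are not reported here. Acan stood at 1827, 78.1 and 41.3 CPM in NG2-creERTM and at 9.34 to 14.7 in Nestin-creERT2, so that replicate 1 holds most of the NG2-creERTM mean. Its log2 fold change of NG2-creERTM over Nestin-creERT2 was 5.73 ± 1.49 (SE, edgeR adjusted p = 0.297).

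Of the procollagen-trimming ADAMTS genes, Adamts2 stood at 4.56, 8.0 and 7.10 CPM in Synapsin-cre, at 2.32, 1.39 and 4.55 in Nestin-creERT2 and at 1.92, 1.75 and 3.13 in NG2-creERTM. The 3 Synapsin-cre libraries were the 3 highest, by a margin of 4.56 to 4.55 CPM at the closest point. Adamts14 was among the most variable genes, from 1.33 CPM in Synapsin-cre replicate 1 to 104 in Synapsin-cre replicate 2. Adamts3 was highest in NG2-creERTM replicate 1, at 70.8 CPM, and at 1.68 to 24.8 in the other 8.

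Adamts12, which cuts cartilage oligomeric matrix protein, had the smallest p of the 57 genes in the test for any difference among the models (edgeR adjusted p = 0.230). It stood at 1.24, 3.92 and 4.75 CPM in Synapsin-cre, at 1.82, 1.08 and 3.53 in Nestin-creERT2 and at 52.1, 8.32 and 21.1 in NG2-creERTM. All 3 NG2-creERTM libraries were above the other 6. The log2 fold change was 3.66 ± 0.84 over Nestin-creERT2 (SE, edgeR adjusted p = 0.256), and that of Synapsin-cre over NG2-creERTM was -3.04 ± 0.82 (adjusted p = 0.357). Leaving out Synapsin-cre replicate 1 gave 3.67 ± 0.73 (adjusted p = 0.0561) and -2.66 ± 0.82 (adjusted p = 0.298). Summed fibroblast markers had the same order of libraries within NG2-creERTM, at 837, 136 and 419 CPM, against 163 to 181 in Synapsin-cre and 22.8 to 61.8 in Nestin-creERT2, and their part in the Adamts12 levels was not tested.

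Adamts16 was the 1 gene whose call depended on the library that stood apart. It had 12.4 CPM in Synapsin-cre replicate 1, 0.0828 and 0 in Synapsin-cre replicates 2 and 3, 0.852, 6.34 and 2.33 in Nestin-creERT2 and 0.210, 0.131 and 0.149 in NG2-creERTM. Synapsin-cre held both extremes. With all 9 libraries the log2 fold change of Synapsin-cre over Nestin-creERT2 was 0.39 ± 1.71 (SE, edgeR adjusted p = 0.961). With that library left out it was -6.12 ± 1.34 (SE, edgeR adjusted p = 0.0585), that of NG2-creERTM over Nestin-creERT2 was -4.27 ± 0.98 (adjusted p = 0.0713), and the test for any difference among the models passed (adjusted p = 0.0459). Adamts18 was highest in Nestin-creERT2, at 0.381 to 0.942 CPM against at most 0.310 in the other 6 libraries, which are levels of few counts. Adamts15 had 21.5 CPM in Synapsin-cre replicate 1 and 0.732 to 6.48 in the other 8. Adamts19 was highest in Synapsin-cre replicate 1 and NG2-creERTM replicate 3, at 35.6 and 23.7 CPM, and stood at 0.264 to 1.97 CPM in Nestin-creERT2.

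Timp4, the inhibitor known from heart and brain, had the smallest p of the 57 genes for Synapsin-cre against Nestin-creERT2. It stood at 24.5, 36.7 and 31.6 CPM in Synapsin-cre, at 81.0, 82.8 and 234 in Nestin-creERT2 and at 132, 92.9 and 39.8 in NG2-creERTM. The 3 Synapsin-cre libraries were the 3 lowest, with NG2-creERTM replicate 3 close to them. The log2 fold change of Synapsin-cre was -2.10 ± 0.55 against Nestin-creERT2 (SE, edgeR adjusted p = 0.317) and -1.51 ± 0.54 against NG2-creERTM (adjusted p = 0.357), and without Synapsin-cre replicate 1 it was -1.96 ± 0.62 (adjusted p = 0.124) and -1.37 ± 0.60 (adjusted p = 0.412).

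Timp1, a secreted inhibitor induced by injury and inflammation and encoded on the X chromosome, stood at 17.0, 42.6 and 64.8 CPM in Synapsin-cre, at 42.6, 2.74 and 2.95 in Nestin-creERT2 and at 72.5, 25.8 and 179.7 in NG2-creERTM. Nestin-creERT2 replicates 2 and 3 were the 2 lowest libraries. Nestin-creERT2 replicate 1, the library with the highest summed choroid plexus and macrophage markers, fell among the others. Timp2, the inhibitor that also helps Mmp14 to activate pro-Mmp2, was even, at 421, 256 and 199 CPM in Synapsin-cre, 282, 203 and 279 in Nestin-creERT2 and 239, 256 and 272 in NG2-creERTM. Timp3, which binds to the matrix and blocks Adam17 and ADAMTS enzymes, ranged from 137 CPM in Nestin-creERT2 replicate 2 to 513 in NG2-creERTM replicate 3. The Timp2 and Timp3 ranges of the 3 models overlap.

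A set of genes shared its highest libraries across models. Adamts1, Adamts5, Adamts17, Adamts20, Adam23, Mmp14 and Timp3, 7 of the 57 tested genes, had their 3 highest values in Synapsin-cre replicate 2 and NG2-creERTM replicates 1 and 3, where 2.05% of all genes tested did. These 3 libraries were singled out after the values were seen, so the count is a description with no test. Timp3 stood at 448, 361 and 513 CPM there and at 137 to 281 CPM in the other 6 libraries. Mmp14 stood at 301, 209 and 163 CPM there and at 43.7 to 113 CPM elsewhere. Adamts17 stood at 23.9, 29.8 and 17.0 CPM there and at 4.12 to 11.1 CPM elsewhere. Summed Schwann and neural crest markers were 2774, 2020 and 4818 CPM in these libraries and at most 1715 CPM in the others, and their part in the pattern was not tested.

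**Figure D5:**
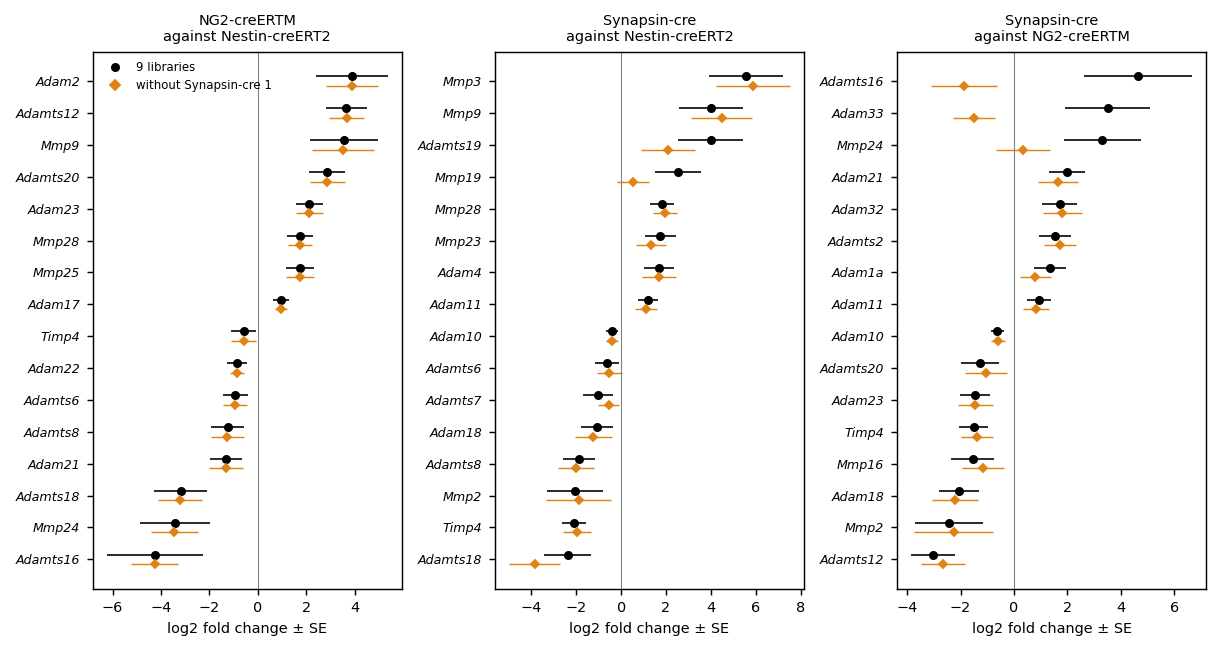
log2 fold change (horizontal axis, bars of 1 SE) of the 8 genes with the smallest p in each direction of each pairwise comparison, with all 9 libraries (black) and without Synapsin-cre replicate 1 (orange). Adam33 and Adamts16 lie on opposite sides of 0 in the 2 fits of Synapsin-cre against NG2-creERTM, and Mmp19 drops towards 0 in Synapsin-cre against Nestin-creERT2.

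Some fold changes changed direction when Synapsin-cre replicate 1 was left out. It was the highest library for 11 of the 57 genes and the lowest for 14, where 25.0% and 23.4% of all genes had their highest and lowest value there. For Adam33, the log2 fold change of Synapsin-cre over NG2-creERTM went from 3.50 ± 1.59 to -1.48 ± 0.79 (SE, edgeR adjusted p = 0.393 and 0.492). For Adamts16 the same comparison went from 4.65 ± 2.02 to -1.86 ± 1.24 (adjusted p = 0.385 and 0.590).

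Beyond the 4 families, 90 related genes were examined: substrates, partners of the sheddases, other inhibitors and proteases, and ADAMTS-like proteins without a protease domain. Of these, 85 were tested and 0 passed in any pairwise comparison in edgeR with all 9 libraries, with 12 higher and 5 lower at an unadjusted p below 0.05 in NG2-creERTM against Nestin-creERT2, 10 and 3 in Synapsin-cre against Nestin-creERT2, and 4 and 6 in Synapsin-cre against NG2-creERTM. The shares of all genes at that p are those given above for the same comparisons (5.53% and 5.73%, 6.74% and 4.05%, 8.81% and 4.0%). In the fit without Synapsin-cre replicate 1, 86 were tested. The counts at an unadjusted p below 0.05 were then 14 higher and 15 lower (8.11% and 10.7% of all genes), 11 and 18 (9.33% and 12.2%), and 3 and 7 (5.3% and 6.72%). Lower counts exceeded higher counts in all 3 comparisons, as they also did over all genes tested. In NG2-creERTM against Nestin-creERT2, 3 fell and 0 rose (0.498% and 0.173% of all genes), namely Lgi1, Spock1 and Cst3. In Synapsin-cre against Nestin-creERT2, 5 fell and 1 rose (1.07% and 0.406% of all genes), namely Lgi1, Spock1, Cst3, Spock3 and Kitl, and Adamtsl1. Between Synapsin-cre and NG2-creERTM none passed.

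Cst3 encodes cystatin C, a secreted inhibitor of cathepsins. It stood at 1088, 511 and 252 CPM in Synapsin-cre, at 1610 to 2427 in Nestin-creERT2 and at 330 to 543 in NG2-creERTM. Without Synapsin-cre replicate 1 its log2 fold change against Nestin-creERT2 was -2.27 ± 0.39 in NG2-creERTM (SE, edgeR adjusted p = 0.0468) and -2.47 ± 0.46 in Synapsin-cre (adjusted p = 0.0443). Spock1, encoding the brain proteoglycan testican 1, stood at 47.1, 3.56 and 1.98 CPM in Synapsin-cre, at 21.2 to 56.7 in Nestin-creERT2 and at 2.67 to 4.89 in NG2-creERTM, with log2 fold changes of -3.43 ± 0.50 (adjusted p = 0.0441) and -3.75 ± 0.61 (adjusted p = 0.0328). The summed neuron markers of the Nestin-creERT2 libraries were above those of the other libraries in that fit, as given above for Mmp24. So were the summed astrocyte markers, at 3998 to 5259 CPM in Nestin-creERT2 against 2093 and 204 in Synapsin-cre replicates 2 and 3 and 1020 to 2547 in NG2-creERTM. The part of either in these calls was not tested. Adamtsl1, encoding punctin, was lowest in Nestin-creERT2, at 3.46 to 10.3 CPM against 26.7 to 67.0 in Synapsin-cre and 23.0 to 28.1 in NG2-creERTM, with a log2 fold change of Synapsin-cre over Nestin-creERT2 of 2.78 ± 0.52 without Synapsin-cre replicate 1 (adjusted p = 0.0440).

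Reck, whose membrane-anchored product inhibits Mmp2, Mmp9 and Mmp14, was also lowest in Nestin-creERT2, at 8.11 to 14.1 CPM against 25.7 to 44.5 in Synapsin-cre and 16.0 to 37.6 in NG2-creERTM (log2 fold change of Synapsin-cre over Nestin-creERT2 1.64 ± 0.45, SE, edgeR adjusted p = 0.318). Ctsk, encoding the collagen-cutting cathepsin K, stood at 1.21 to 2.06 CPM in Nestin-creERT2, 2.83 to 13.5 in Synapsin-cre and 6.54 to 17.6 in NG2-creERTM (log2 fold change of NG2-creERTM over Nestin-creERT2 3.05 ± 0.69, SE, edgeR adjusted p = 0.255). None of the Reck or Ctsk differences passed.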

How the data were processed

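Bulk RNA-seq of 9 primary glioblastoma samples was used, 3 per model. The labels' protocols name the Qiagen RNeasy kit for RNA and Illumina's own procedure for the libraries. The authors deposited whole-number counts per gene in the layout of STAR's count output; per the submitters' processing notes, STAR, HTSeq and mm10 were used, with versions not given in the sources used here. The column of the strand with most reads (column 4) was taken, since the other strand held 3.25 to 3.64%. Of 46517 identifiers, 46005 matched GENCODE vM21 (GRCm38), which gave symbols, gene types, coordinates and union exon lengths; 512 did not.

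From the deposited counts, CPM were calculated with TMM size factors. Genes kept by filterByExpr (17947) were tested with edgeR 4.0.16 (R 4.3.3), quasi-likelihood, 2-sided, on all 9 libraries with the model as the only term, and adjusted by Benjamini-Hochberg. Alternatives were RLE size factors, no filter, 1 CPM in 3 libraries, limma 3.58.1 voom, DESeq2 1.42.0, unstranded counts, 2 models only, and each library left out. The genes, role groups, related genes and markers were chosen with earlier results of these data known. Named genes were the 8 smallest p per direction and comparison, with and without Synapsin-cre replicate 1, the 6 smallest for any difference, the 12 highest levels and a fixed panel. Related genes were named mainly as the 3 smallest p per direction and comparison, so they are not typical of their groups. Not all are reported. Adam8, Adam9, Adam12, Mmp8, Mmp12, Mmp16, Mmp17, Adamts4, Adamts5 and Adamts14 were described to complete role groups, partly after their values were seen. Promoter windows came from RefSeq (GRCm38.p6), for 48 of 78 genes.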

Additional observations from a re-analysis of the deposited data

How the results depend on the processing

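The counts of protease and inhibitor genes past the adjusted threshold (0 in each pairwise comparison and for any difference) were recomputed under 17 alternatives, each where it applied, which gave 65 values, 60 of them 0. DESeq2 gave 5, 5, 1 and 5. Leaving out 1 library at a time gave 0 in each pairwise comparison and 0 to 1 for any difference, the 1 without Synapsin-cre replicate 1. Of 1055 alternative values of 64 named log2 fold changes, 20 in 9 fold changes changed direction, and 11 moved past the threshold in the same direction, all with DESeq2. For Synapsin-cre against Nestin-creERT2, limma voom gave -0.48 for Adam33, -0.63 for Adamts15 and -3.39 for Adamts16, and the fit of only these models without Synapsin-cre replicate 1, chosen after seeing the data, gave -2.64, -1.80 and -6.12. With 1 library left out, this comparison ran from -2.65 to 2.82 for Adam33, from -1.80 to 0.99 for Adamts15, from -6.12 to 1.37 for Adamts16 and from -3.11 to 1.12 for Mmp24, the lowest in each case without Synapsin-cre replicate 1, and from -0.69 to 0.16 for Adam22. For Synapsin-cre against NG2-creERTM, Adam33 ran from -1.48 to 3.99 and Adamts16 from -1.86 to 5.14, and Mmp2 from -3.02 to 0.86, the highest without NG2-creERTM replicate 3. Adam33 was -1.51 there in the fit of only these models without Synapsin-cre replicate 1. Timp4 in NG2-creERTM against Nestin-creERT2 ran from -1.0 to 0.11, the highest without Nestin-creERT2 replicate 3. The cause was not tested. No paired analysis was possible because the labels number no replicates: the numbers used here follow the order of the samples and tie no library of one model to one of another. Depth limits the genes under 1 CPM, such as Adamts18, whose values rest on few counts.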
